A study of Rattus norvegicus with 20 samples.

Results

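The carnitine shuttle carries long-chain fatty acids into mitochondria for β-oxidation. Its acyltransferases and carriers were described here in the livers of rats fed fish oil or soybean oil, with tofu or casein as the protein source. The members were the 7 genes whose symbols are Slc22a5, Cpt1a, Cpt1b, Slc25a20, Cpt2, Crat and Crot, chosen by name among the 14217 genes measured. All 7 were on the array, with 10 probe sets in total (a probe set is a group of short probes for 1 transcript). Each gene was read from the probe set whose mean over the 20 rats was highest. The other 3 probe sets, which belong to Crot and Cpt1a, served as a check.

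Liver RNA was measured in 20 male Sprague-Dawley rats, which arrived at 4 weeks of age and were then fed for 21 days. There were 5 rats each on tofu and fish oil (TF), tofu and soybean oil (TS), casein and fish oil (CF), and casein and soybean oil (CS). Each diet held 200 g of protein and 150 g of fat per kg. In the CF and TF diets 50 g/kg of the soybean-derived fat was exchanged for fish oil. The tofu diets also carried some casein, and much of their soybean fat came with the tofu itself. Per the methods, rats with the highest and lowest food consumption in each group were not put on arrays, and all rats were without food for a short time before death.

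Cells take up carnitine from blood through the sodium-dependent transporter OCTN2, the product of Slc22a5. On the outer mitochondrial membrane, carnitine palmitoyltransferase 1 (CPT1) moves the acyl group from CoA to carnitine. Cpt1a encodes the liver form and Cpt1b the muscle form of this enzyme, which is inhibited by malonyl-CoA and is known as the rate-limiting step of the pathway. The carnitine-acylcarnitine translocase (Slc25a20) exchanges acylcarnitine for free carnitine across the inner membrane, and CPT2 returns the acyl group to CoA in the matrix. Carnitine acetyltransferase (Crat) acts on acetyl and other short chains. Carnitine octanoyltransferase (Crot) is a peroxisomal enzyme that acts on medium chains, the products of peroxisomal β-oxidation. In rodent liver many genes of fatty acid oxidation are regulated by PPARα, a nuclear receptor that binds fatty acids and attaches to DNA together with RXR.

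In build GRCr8 of the rat genome, Slc22a5 lies on chromosome 10 (38509072 to 38536240), Slc25a20 on chromosome 8 (118243573 to 118265027) and Cpt2 on chromosome 5 (127893450 to 127911347). Crat lies on chromosome 3 (34073504 to 34087099), Crot on chromosome 4 (26031729 to 26088057), Cpt1a on chromosome 1 (209993881 to 210056329) and Cpt1b on chromosome 7 (122370974 to 122380473). The promoters of 6 members are in the RefSeq table used here (build GRCr8), from 250 bases before a start of transcription to 50 after it. They were searched on both strands for the DR1 element, the paired repeat to which PPARα and RXR bind, spelled AGGTCANAGGTCA (N is any base, and 12 letters were compared). No member had the element without a mismatch. The closest windows of Slc25a20 and Crat had 2 mismatches each, and those of Cpt1a, Cpt2 and Slc22a5 had 4 and that of Crot 5. Among all 33469 promoters of the same length, 3.77% held a window with at most 2 mismatches. A lone repeat, AGGTCA, was in 0 of the 6 promoters and in 16.2% of all promoters. A match of letters is a description and not a binding site, and other stretches of these genes were not searched. The promoter stretches of Cpt1a, Cpt2 and Crot lay wholly inside the gene coordinates above, so the outer 5′ ends of these genes were not searched. The promoters of Slc25a20 and Crat are shown for their closest window, in capitals, and that of Cpt1a as the member that opens the mitochondrial step. Each is given 5′ to 3′ on the strand of its gene. The Slc25a20 sequence lies on the plus strand at chr8:118243323-118243622, that of Crat on the minus strand at chr3:34087050-34087349, and that of Cpt1a on the plus strand at chr1:209995910-209996209. The window of Slc25a20 opens 15 bases after the start of transcription, and that of Crat 223 bases before it.
Slc25a20: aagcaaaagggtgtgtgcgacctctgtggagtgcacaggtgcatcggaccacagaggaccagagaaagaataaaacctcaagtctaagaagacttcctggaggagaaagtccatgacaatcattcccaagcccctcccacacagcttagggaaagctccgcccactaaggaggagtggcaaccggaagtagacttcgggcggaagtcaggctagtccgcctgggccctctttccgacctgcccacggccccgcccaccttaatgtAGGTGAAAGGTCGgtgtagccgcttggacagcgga
Crat: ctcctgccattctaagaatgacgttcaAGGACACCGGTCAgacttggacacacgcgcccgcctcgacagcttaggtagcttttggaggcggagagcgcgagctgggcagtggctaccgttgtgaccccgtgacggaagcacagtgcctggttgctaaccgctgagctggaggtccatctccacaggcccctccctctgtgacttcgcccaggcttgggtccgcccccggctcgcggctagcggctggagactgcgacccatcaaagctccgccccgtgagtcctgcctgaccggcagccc
Cpt1a: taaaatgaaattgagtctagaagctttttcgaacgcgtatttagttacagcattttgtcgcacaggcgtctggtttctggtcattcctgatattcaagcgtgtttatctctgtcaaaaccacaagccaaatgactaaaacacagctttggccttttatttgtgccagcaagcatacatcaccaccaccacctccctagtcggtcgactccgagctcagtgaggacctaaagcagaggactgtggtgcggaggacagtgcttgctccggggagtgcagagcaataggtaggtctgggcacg

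The values analysed were z scores on a log axis, in which each array was standardized to its own distribution of signals, so a z of 0 is near the middle of an array. By the study's methods a difference of 0.2 in z is a 1.41-fold difference, and every fold given here was derived from that scale. Where any group mean was not above 0.022, the top median among the arrays, no fold was computed. Depth does not apply to arrays, and the number of rats limits the precision. The array medians lay between -0.10 and 0.022, and the median correlation of an array with the others was 0.938 to 0.958. The 5′ β-actin control probe set was low in 4 arrays, 1 in each diet group (TF rat 3 and rats 1 of TS, CF and CS, with z of 1.30 to 1.42, against 1.86 to 2.13 in the other 16). In 10 permutation tests of array properties between oils or proteins the lowest adjusted p was 0.699. The mean of 7 hepatocyte markers, among them Alb and Ttr, was 2.83 to 3.09 in z per rat, and 12 of 14 striated muscle markers averaged below 0.022 over the 20 rats.

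The main comparison asked whether fish oil changed the mRNA of the shuttle. Of 7 members, 5 rose on fish oil, 0 fell and 2 did not pass the test (limma, Benjamini-Hochberg adjusted p under 0.05 over 31039 probe sets). Over all probe sets 0.193% were called for this comparison in either direction, and 0.177% were higher. The genes that rose were Slc22a5, Slc25a20, Cpt2, Crat and Crot. Cpt1a and Cpt1b did not pass. The median difference of the members was 0.26 in z, against -0.0018 over all genes. The members were chosen by name with earlier results of these data known. In whole liver, fewer cells of a type and less RNA per cell cannot be told apart.

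**Figure D1:**
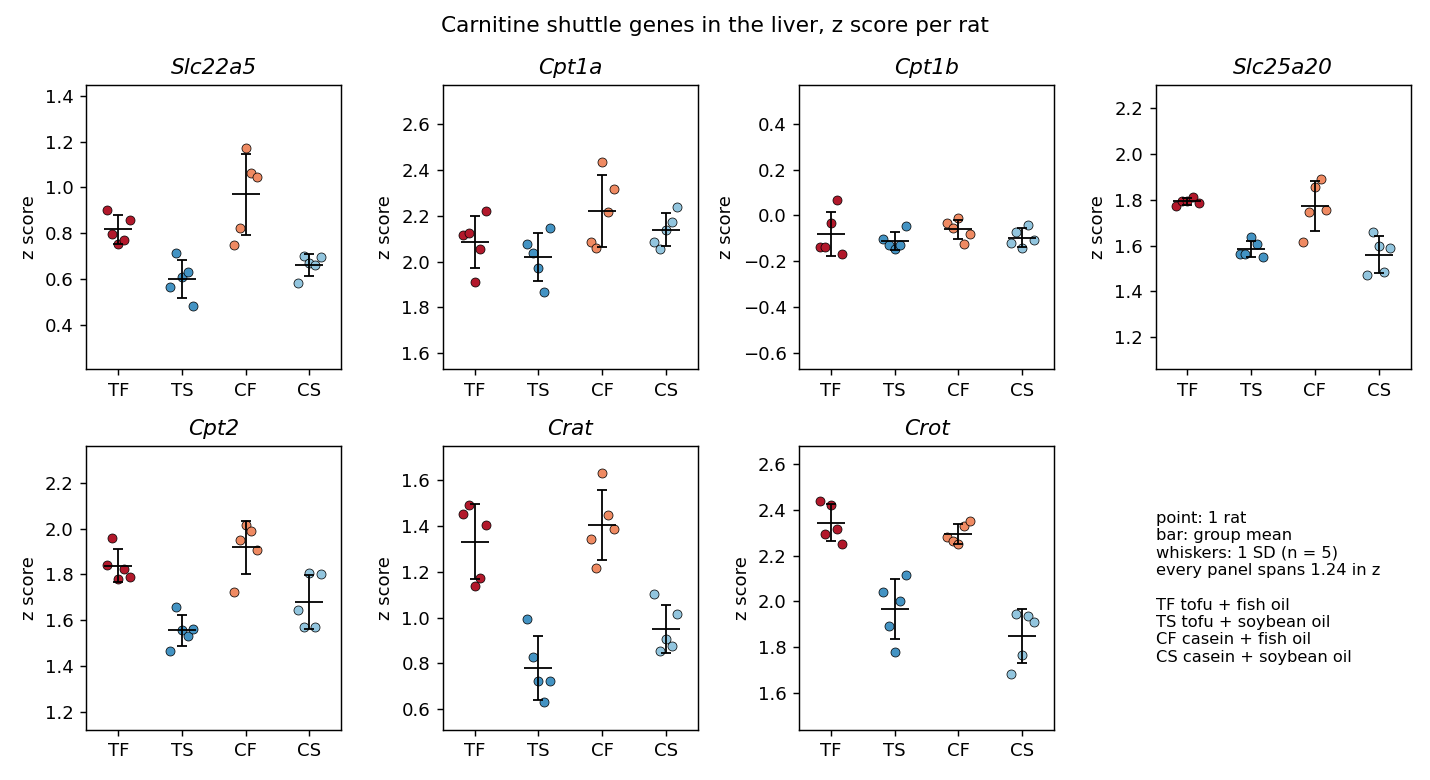
z score of each carnitine shuttle gene (vertical axis, each panel spanning the same range) in every rat, by diet on the horizontal axis; points are rats, horizontal bars are group means and whiskers 1 SD (n = 5 each). Crat, Crot and Slc22a5 show all 10 fish oil rats above all 10 soybean oil rats, while Cpt1a and Cpt1b overlap between oils.

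Crat showed the largest difference of the members. On tofu its z was 1.45, 1.49, 1.14, 1.17 and 1.40 in the 5 TF rats, against 0.99, 0.83, 0.72, 0.63 and 0.72 in the 5 TS rats. On casein its z was 1.34, 1.22, 1.63, 1.45 and 1.39 in the CF rats, against 1.10, 0.85, 0.91, 0.88 and 1.01 in the CS rats. The lowest fish oil rat (TF rat 5) stood just above the highest soybean oil rat (CS rat 1), so the oils did not overlap. The mean was 1.37 ± 0.15 in z on fish oil and 0.87 ± 0.15 on soybean oil (SD, n = 10 each). The difference was 0.50 in z (SE 0.061), or 2.39-fold, with a limma adjusted p of 0.000299. Of all probe sets, 0.0805% were higher in every fish oil rat than in every soybean oil rat, and 3 members were among them.

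Crot, the peroxisomal enzyme, rose with little scatter on fish oil. Its z was 2.44, 2.29, 2.42, 2.31 and 2.25 in the TF rats, against 2.04, 1.89, 1.78, 2.003 and 2.12 in the TS rats. In the CF rats it was 2.28, 2.26, 2.25, 2.33 and 2.35, against 1.68, 1.94, 1.77, 1.94 and 1.91 in the CS rats. No fish oil rat was below any soybean oil rat, and the CF rats lay close together. The mean was 2.32 ± 0.067 in z on fish oil and 1.91 ± 0.13 on soybean oil (SD, n = 10 each), a difference of 0.41 (SE 0.045) or 2.04-fold (limma adjusted p = 6.5e-05). A second probe set of Crot rose by 0.43 in z (SE 0.069, limma adjusted p = 0.0062). The remaining probe set, designed on an expressed sequence tag and with a mean z of -0.26, differed by 0.14 (SE 0.057) and did not pass (limma adjusted p = 0.825).

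The carnitine transporter Slc22a5 stands at the entry of the pathway. Its z was 0.90, 0.80, 0.75, 0.77 and 0.86 in the TF rats, against 0.57, 0.71, 0.61, 0.63 and 0.48 in the TS rats. It was 0.75, 0.82, 1.17, 1.06 and 1.05 in the CF rats, against 0.58, 0.70, 0.67, 0.66 and 0.70 in the CS rats. The oils did not overlap, and the CF group was the most spread, with rats 1 and 2 close to the soybean oil range and the other 3 above 1 in z. The mean was 0.89 ± 0.15 in z on fish oil and 0.63 ± 0.072 on soybean oil (SD, n = 10 each), which is a difference of 0.26 (SE 0.047) or 1.57-fold (limma adjusted p = 0.0172).

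The translocase Slc25a20 and Cpt2 act in sequence at the inner membrane. For Slc25a20 the TF rats had 1.77, 1.80, 1.80, 1.81 and 1.79 in z, against 1.56, 1.56, 1.64, 1.61 and 1.55 in the TS rats. The CF rats had 1.61, 1.75, 1.86, 1.89 and 1.76, against 1.47, 1.66, 1.60, 1.48 and 1.59 in the CS rats. The 5 TF rats were nearly equal, and only CF rat 1 fell within the soybean oil range, so that 9 of 10 fish oil rats were above all soybean oil rats. The difference in mean was 0.21 in z (SE 0.034), or 1.44-fold, with 1.78 ± 0.074 on fish oil and 1.57 ± 0.060 on soybean oil (SD, n = 10 each, limma adjusted p = 0.00608).

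For Cpt2 the TF rats had 1.84, 1.96, 1.78, 1.82 and 1.79 in z, against 1.47, 1.66, 1.56, 1.53 and 1.56 in the TS rats. The CF rats had 1.72, 1.95, 2.02, 1.99 and 1.91, against 1.65, 1.57, 1.81, 1.57 and 1.80 in the CS rats. On tofu the oils were apart, whereas on casein CF rat 1 lay below CS rats 5 and 7, and 7 of 10 fish oil rats were above all soybean oil rats. The mean was 1.88 ± 0.10 in z on fish oil and 1.62 ± 0.11 on soybean oil (SD, n = 10 each). This was a difference of 0.26 (SE 0.044) or 1.57-fold (limma adjusted p = 0.00877).

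Cpt1a, the liver form of the malonyl-CoA sensitive enzyme, overlapped between oils. Its z was 2.12, 2.12, 1.91, 2.05 and 2.22 in the TF rats, against 2.08, 2.04, 1.97, 1.87 and 2.15 in the TS rats. It was 2.09, 2.06, 2.44, 2.22 and 2.32 in the CF rats, against 2.09, 2.06, 2.14, 2.17 and 2.24 in the CS rats. Only CF rats 5 and 7 were above every soybean oil rat, TS rat 5 was below every fish oil rat, and the other rats lay in a shared range. The difference was 0.074 in z (SE 0.051, limma adjusted p = 0.964), with a 95% interval of -0.033 to 0.18, or 0.945-fold to 1.37-fold. The second Cpt1a probe set differed by 0.088 (SE 0.067, limma adjusted p = 0.977).

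Cpt1b, the muscle form, had z scores near the middle of the array in all rats, from -0.17 to 0.067 in TF and -0.12 to -0.013 in CF, against -0.15 to -0.046 in TS and -0.14 to -0.042 in CS. Its oil difference was 0.033 in z (SE 0.030, limma adjusted p = 0.998). Whether such values lie above background cannot be read from these files, which hold no detection measure. Striated muscle markers did not pass the test for the oil in any of 14 genes, and their mean z per rat was -0.46 to -0.24 in TF and -0.43 to -0.26 in CF, against -0.39 to -0.30 in TS and -0.53 to -0.35 in CS.

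**Figure D2:**
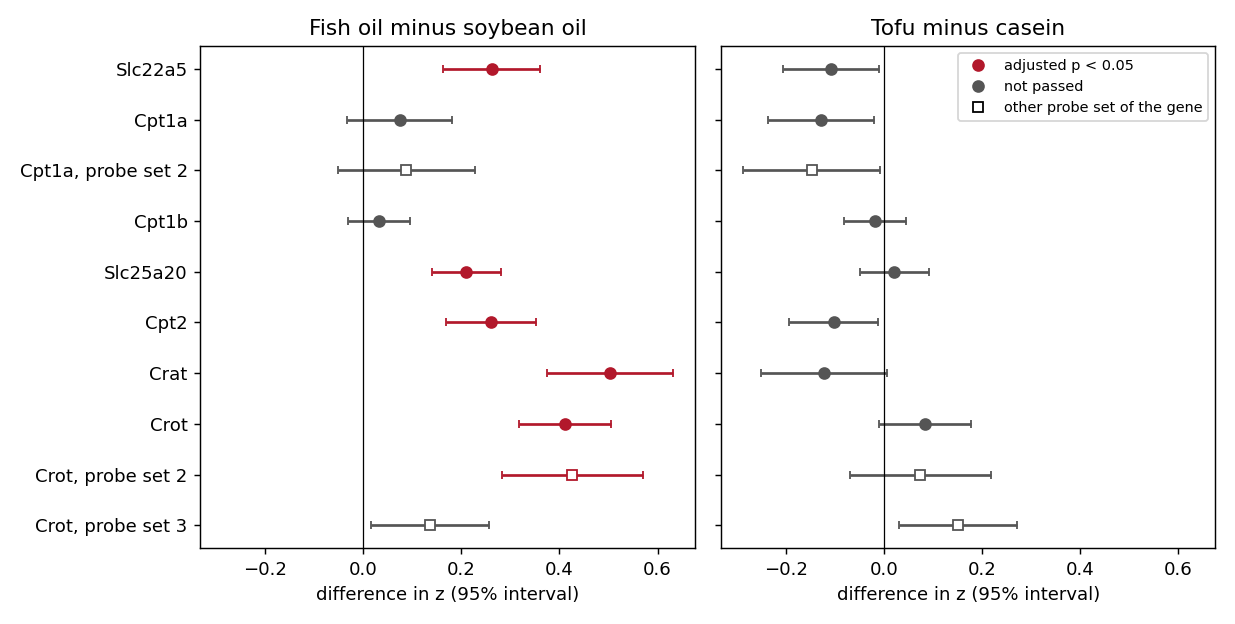
Difference in z for fish oil minus soybean oil (left) and tofu minus casein (right) with 95% intervals, for the main probe set of each gene (circles) and the other probe sets of Cpt1a and Crot (open squares); red marks an adjusted p under 0.05. The oil differences of 5 genes passed, from 0.21 for Slc25a20 to 0.50 for Crat, and no protein difference did.

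The responses of Cpt2 and Cpt1a, the enzymes on either side of the inner membrane carrier, were compared directly. The difference between their z scores was formed in each rat, which removes the level of each probe set from the comparison of diets. Cpt2 minus Cpt1a was 0.19 higher on fish oil than on soybean oil (SE 0.053, 95% interval 0.073 to 0.30), and 6 of 10 fish oil rats were above all soybean oil rats. A two-sided permutation test gave p = 0.00228. This pair was chosen after the values were seen, so the p rests on the values that picked it and is a description only. Cpt2 minus Cpt1a was 0.22 higher with fish oil on tofu and 0.15 higher on casein. Against Cpt1a, the fish oil difference of Crat was 0.43 in z (95% interval 0.33 to 0.53), and that of Crot was 0.34 (0.20 to 0.48). For Slc22a5 it was 0.19 (0.087 to 0.29) and for Slc25a20 0.14 (0.018 to 0.25), without a test.

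**Figure D3:**
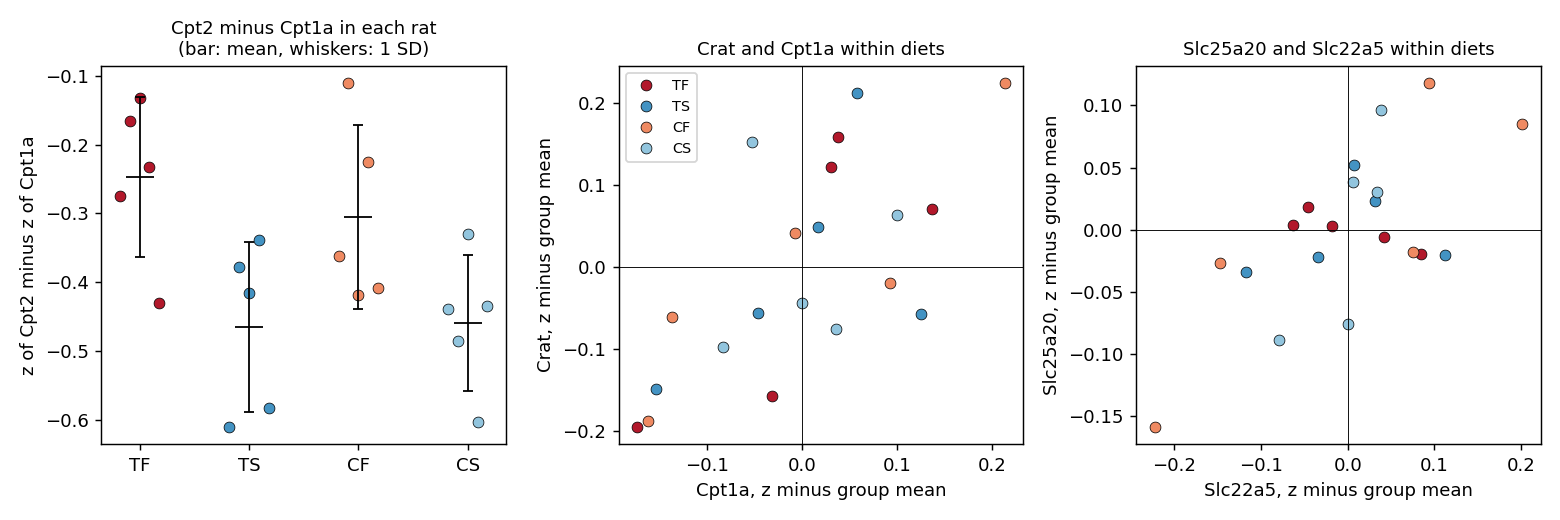
Left, z of Cpt2 minus z of Cpt1a in each rat by diet, with means and 1 SD (n = 5 each); only differences between diets can be read from it. Middle and right, z minus the group mean of Crat against Cpt1a and of Slc25a20 against Slc22a5 in the 20 rats, which had within-diet correlations of 0.67 and 0.66.

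The oil comparison was then made within each protein source. On tofu (TF against TS) 2 of 7 members passed, against 0.0677% of all probe sets. These were Crat, with a difference of 0.55 in z (SE 0.086, 2.60-fold, limma adjusted p = 0.0104), and Crot, with 0.38 (SE 0.063, 1.92-fold, limma adjusted p = 0.0208). On casein (CF against CS) 1 of 7 passed, against 0.0451% of all probe sets. This was Crot, with 0.45 (SE 0.063, 2.17-fold, limma adjusted p = 0.0063), and Crat differed by 0.45 (SE 0.086, limma adjusted p = 0.0703). The groups of 5 did not overlap for 5 members on tofu (0.432% of all probe sets were higher in every TF rat than in every TS rat) and for 3 on casein (0.535% of all probe sets were higher in every CF rat than in every CS rat). Slc25a20 differed by 0.21 in z on tofu and by 0.21 on casein, Cpt2 by 0.28 and 0.24, and Slc22a5 by 0.22 and 0.31, none of them past the test within a protein source.

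Single rats decided some of these calls. Without TF rat 3 neither Crat nor Crot passed on tofu (limma adjusted p = 0.0511 and 0.0915). Crot also did not pass on tofu without TF rat 5 or without TS rat 2, 4 or 5 (limma adjusted p of 0.0525 to 0.0826). Without CF rat 1, Slc25a20 and Slc22a5 passed on casein as well, with differences of 0.25 and 0.36 in z (limma adjusted p = 0.0304 and 0.0254). CF rat 1 was the lowest of its group for Cpt2, Slc25a20 and Slc22a5 and is among the arrays with a low 5′ β-actin value. Without TS rat 1, Crat passed on casein (limma adjusted p = 0.0468). That rat is in neither casein group, so the difference stayed at 0.45 in z and the spread estimated over all groups changed.

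The oil difference was not found to depend on the protein source. The interaction passed for 0 of 7 members, and 0.00% of all probe sets were called (limma, 0 of 31039 probe sets, 1065 at an unadjusted p under 0.05, and 0 in a model without moderation). The difference of the oil effects, TF minus TS less CF minus CS, was highest for Crat at 0.097 in z (95% interval -0.16 to 0.35) and lowest for Slc22a5 at -0.092 (-0.29 to 0.11). These intervals do not show that the oil effects were equal on both proteins.

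Tofu was compared with casein over both oils. Of 7 members 0 passed, against 0.557% of all probe sets (173 called by limma), and 3 members had an unadjusted p under 0.05, as did 3159 of all 31039 probe sets. Cpt1a was 2.05 ± 0.11 in z on tofu and 2.18 ± 0.12 on casein (SD, n = 10 each), a difference of -0.13 (95% interval -0.24 to -0.021, limma adjusted p = 0.379). Its second probe set gave -0.15 (SE 0.067, limma adjusted p = 0.457), and on that probe set each of the 10 tofu rats lay under the mean of the casein rats. Cpt2 differed by -0.10 (SE 0.044, limma adjusted p = 0.416) and Slc22a5 by -0.11 (SE 0.047, limma adjusted p = 0.435). Crat differed by -0.12 and Crot by 0.083, while Slc25a20 and Cpt1b differed by 0.022 and -0.018. The median of the members was -0.10, against 0.011 over all genes.

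The members were not equally tied to each other from rat to rat. With the group mean removed, the correlation over the 20 rats was 0.66 between Slc25a20 and Slc22a5 (Spearman's rho 0.57), 0.51 between Slc25a20 and Cpt2 (rho 0.38) and 0.49 between Cpt2 and Slc22a5 (rho 0.35). Crot, which is peroxisomal, had within-diet correlations of -0.25 to 0.019 with the other 4 genes that rose. Over the 10 pairs among the 5 genes that rose the median was 0.17, which lay within the quartiles for a member with any gene (-0.17 to 0.20, median 0.014). For Cpt1a with these 5 genes the median was 0.39. The highest value of any member pair was 0.67, between Crat and Cpt1a (rho 0.68), although Cpt1a did not pass the oil test. These correlations share arrays and are descriptions.

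The genes outside the shuttle with the most similar pattern over the 20 arrays were taken by Pearson's r, 3 for each gene that rose. For Crat they were Ech1 (r = 0.95, rho 0.95), Vnn1 (0.94, rho 0.92) and Pex11a (0.92, rho 0.92). They encode a dienoyl-CoA isomerase, a pantetheinase and a factor of peroxisome division. For Cpt2 they were Ech1 (0.90, rho 0.90), Acot3 (0.89, rho 0.87) and Acot2 (0.89, rho 0.90). Slc22a5 was closest to Vwa8 (0.92, rho 0.85), Acot3 (0.91, rho 0.92) and Rab30 (0.88, rho 0.85). Slc25a20 was closest to Hdc (0.89, rho 0.82), Hadhb (0.89, rho 0.83) and Cyp4a1 (0.86, rho 0.81), and Crot to Hdc (0.85, rho 0.80), Creb3l3 (0.84, rho 0.80) and Cyp4a1 (0.83, rho 0.79). Hdc encodes histidine decarboxylase, Cyp4a1 a fatty acid ω-hydroxylase and Creb3l3 a hepatic transcription factor. Within diets every one of these correlations was lower, from 0.12 for Crot with Cyp4a1 to 0.76 for Crat with Vnn1. For Crot they were 0.12 to 0.36, the latter with Creb3l3. All of these neighbours passed the oil test themselves (limma adjusted p of 1.05e-05 to 0.0345), so the r over 20 arrays includes the oil difference. The Acot genes are close relatives, and their probe sets may share signal.

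The steps around the shuttle were then examined. Of 9 further genes of carnitine synthesis and transport, 0 rose and 0 fell on fish oil, with a median difference of 0.031 in z against -0.0018 over all genes. Bbox1 (γ-butyrobetaine hydroxylase, the last enzyme of carnitine synthesis) differed by 0.027 (SE 0.070), Tmlhe, its first enzyme, by 0.042 (SE 0.028), and Slc22a4, a relative of the transporter, by 0.031 (SE 0.052). These 3 differences had limma adjusted p of 0.964 and above.

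Of 7 genes listed as acyl-CoA synthetases, 1 rose and 0 fell. This was Slc27a2, a very long-chain synthetase, which was 2.82 ± 0.081 in CF against 2.64 ± 0.061 in CS, and 2.81 ± 0.059 in TF against 2.67 ± 0.016 in TS (SD, n = 5 each), a difference of 0.16 in z (SE 0.030, limma adjusted p = 0.0266). Acsl1, the main long-chain synthetase of the liver, differed by 0.078 (SE 0.029, limma adjusted p = 0.699).

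Downstream, 4 of 15 genes of mitochondrial β-oxidation rose and 0 fell, and the median of the list was 0.14 in z. Eci1 (an enoyl-CoA isomerase) and Decr1 (2,4-dienoyl-CoA reductase), which act on unsaturated fatty acids, rose by 0.60 (SE 0.054, 2.81-fold) and 0.30 (SE 0.049, 1.67-fold). Hadhb and Hadha, the subunits of the trifunctional protein, rose by 0.22 (SE 0.030) and 0.19 (SE 0.034). The other 11 did not pass, among them Eci2, another enoyl-CoA isomerase, at 0.13 (SE 0.040, limma adjusted p = 0.568), and all 15 had a difference above 0. In peroxisomal β-oxidation 2 of 10 genes rose, namely Ehhadh, the bifunctional enzyme, by 0.51 (SE 0.063, limma adjusted p = 0.000317) and Abcd3, a peroxisomal fatty acid transporter, by 0.19 (SE 0.037, limma adjusted p = 0.0431).

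Of 14 known PPARα targets outside the shuttle, 7 rose on fish oil and 0 fell, with a median of 0.17 in z. Acot2, Vnn1 and Cyp4a1 rose by 0.60 (SE 0.054), 0.70 (SE 0.071) and 0.53 (SE 0.053), and Acot1 by 2.31 (SE 0.22). None of 14 nuclear receptors and coactivators passed the oil test. Ppara had a mean z of -0.24 ± 0.12 in TF against -0.22 ± 0.083 in TS, and -0.21 ± 0.13 in CF against -0.24 ± 0.026 in CS (SD, n = 5 each), a difference of 0.0012 (SE 0.044, limma adjusted p = 0.9997). Changes of receptor activity cannot be read from mRNA.

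Malonyl-CoA is the inhibitor of CPT1. Of 6 genes listed for its supply, use and removal 0 rose and 4 fell on tofu, and on fish oil 0 rose and 0 fell. Fasn (fatty acid synthase), which uses malonyl-CoA, fell by 0.77 in z on tofu (SE 0.095, 3.80-fold, limma adjusted p = 0.0004). Acly (ATP citrate lyase), which supplies acetyl-CoA for its synthesis, fell by 0.44 (SE 0.050, 2.13-fold, limma adjusted p = 0.000161). Acaca and Acacb, the acetyl-CoA carboxylases that make malonyl-CoA, fell by 0.32 (SE 0.055) and 0.25 (SE 0.054). Acacb, the form at the outer mitochondrial membrane, was below 0 in z in all 4 groups. Mlycd (malonyl-CoA decarboxylase), which removes malonyl-CoA, differed by 0.14 between oils (SE 0.033, limma adjusted p = 0.211) and by -0.014 between proteins. In the same comparison of proteins 4 of the 14 PPARα targets fell and 0 rose, among them Pdk4 by 0.55 (SE 0.086, limma adjusted p = 0.00422) and Fgf21 by 0.50 (SE 0.083, limma adjusted p = 0.0058), and 0 shuttle genes did.

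**Figure D4:**
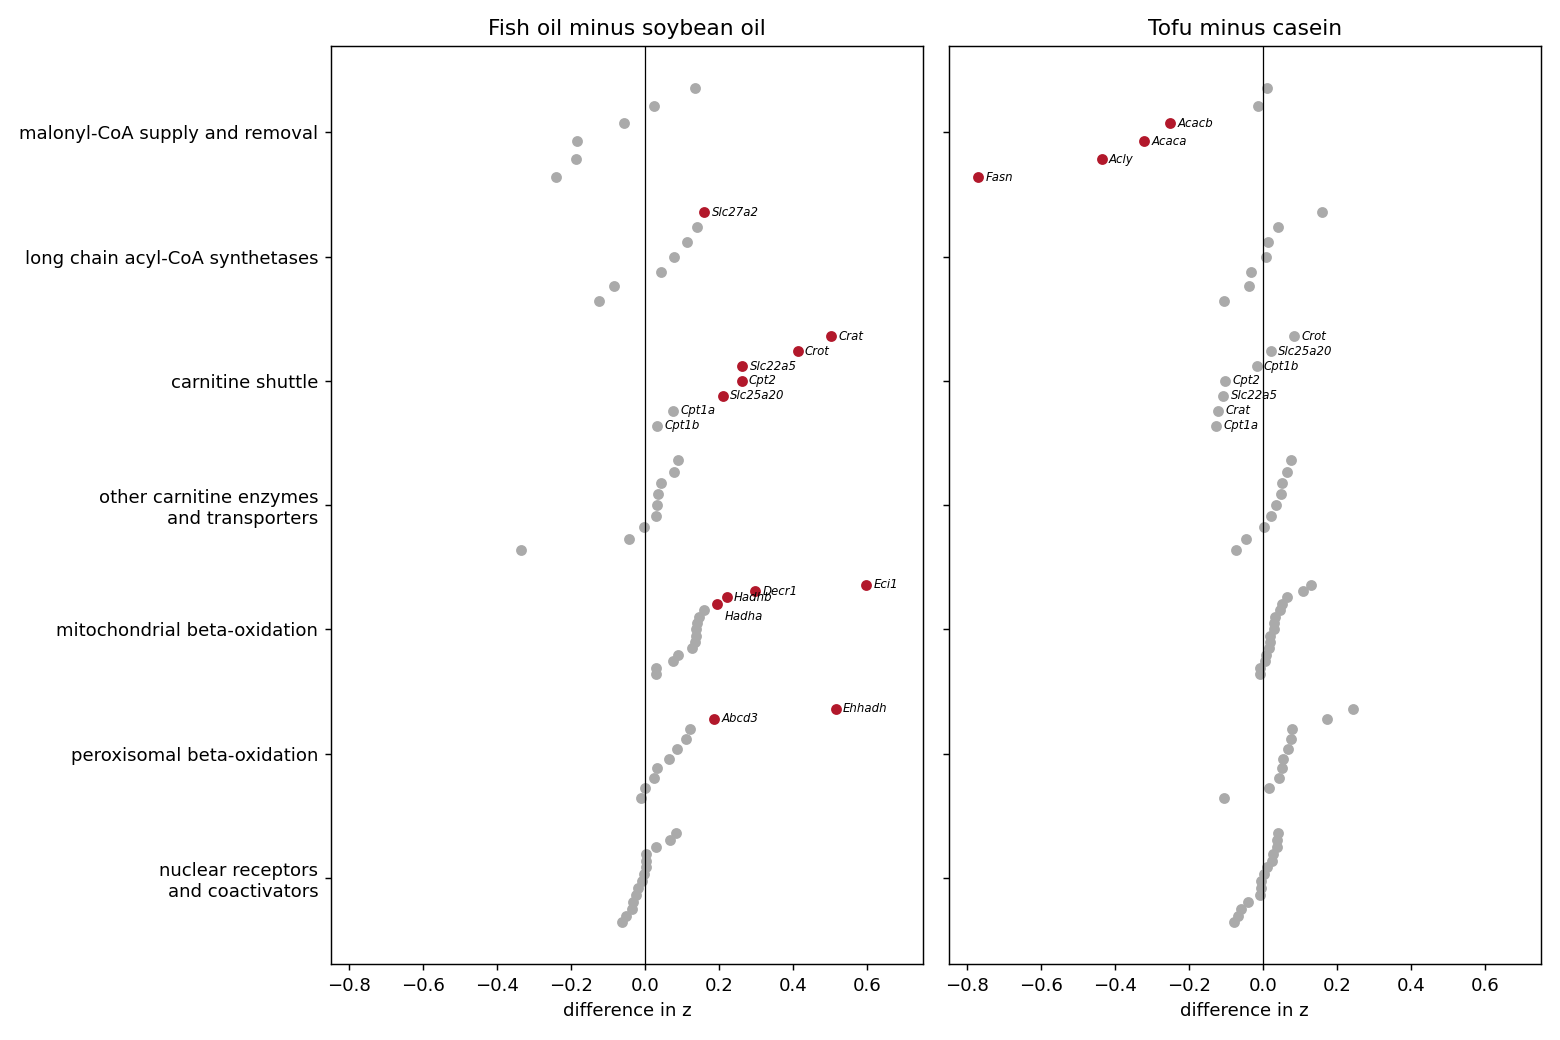
Difference in z of each gene for fish oil minus soybean oil (left) and tofu minus casein (right), by step of the pathway on the vertical axis; red points passed the test (limma adjusted p under 0.05) and are named, as are all carnitine shuttle genes. On the left 5 shuttle genes, 1 acyl-CoA synthetase, 4 mitochondrial and 2 peroxisomal genes passed. On the right only 4 genes of the malonyl-CoA list passed, namely Acaca, Acacb, Acly and Fasn, which uses malonyl-CoA.

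The oil calls were recomputed under 10 other settings and without each rat in turn. Crat and Crot passed in all 10 and in all 20 fits without 1 rat. Slc22a5, Slc25a20 and Cpt2 passed in 8 of the 10 settings. They also passed without any 1 rat, with highest limma adjusted p of 0.0470, 0.0169 and 0.0257. Without the 3 arrays that correlated least with the others (TF rats 4 and 5 and TS rat 7) they did not pass (limma adjusted p = 0.0868, 0.0724 and 0.0724), although their differences were 0.26, 0.20 and 0.25 in z, and 2 members were then called in place of 5. With the rat number fitted as a block these 3 genes did not pass either (limma adjusted p = 0.234, 0.0688 and 0.110), and 2 members were called. Without the 4 arrays with a low 5′ β-actin value all 5 passed.

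**Figure D5:**
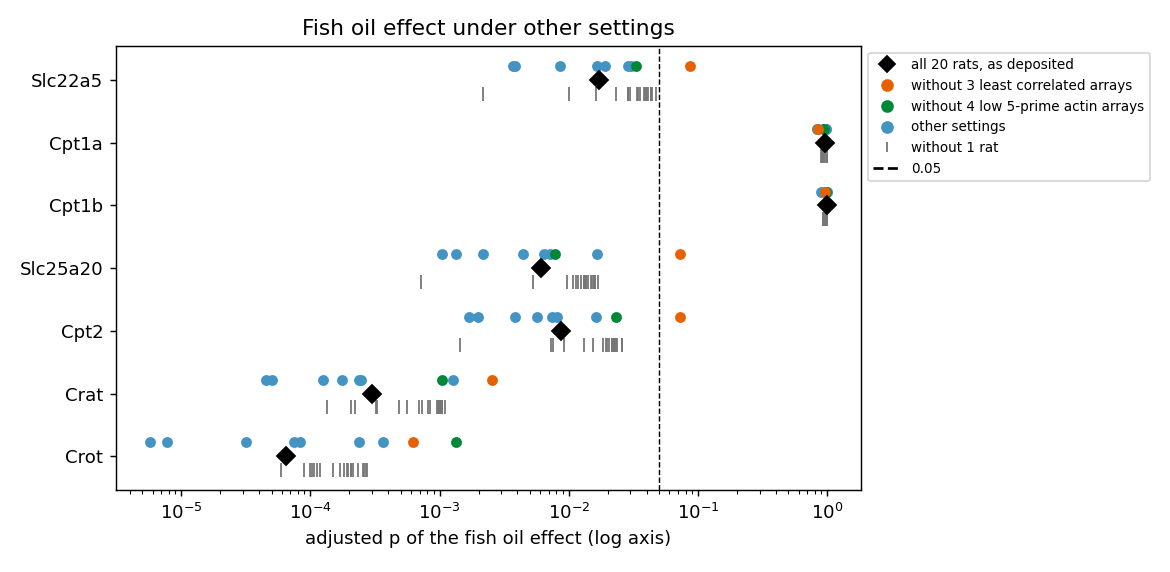
Adjusted p of the fish oil effect (horizontal log axis) for each carnitine shuttle gene with all 20 rats (diamonds), under other settings (circles; the fit with the rat number as a block is not drawn) and without 1 rat (ticks); the dashed line marks 0.05. Crat and Crot lie left of the line in every fit drawn, Cpt1a and Cpt1b right of it, and of the fits drawn the other 3 genes cross it without the 3 least correlated arrays.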

How the data were processed

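Liver RNA of each rat was hybridized to 1 Affymetrix Rat Genome array without pooling. Normalization was done by the authors through SuperNORM, a commercial service, and the deposited z scores give 1 value for a probe set in a rat. Its version, its handling of background and the way probes were combined are not given in the sources used here. Of 31099 probe sets, 57 are controls, and 63 values were missing, 0 of them in members. Tests covered the 31039 non-control probe sets that had 3 or more values per group. Symbols came from the array annotation and were updated by Entrez ID with RefSeq (GRCr8). A single symbol was available for 20825 probe sets. Sequences are from RefSeq.

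Group means of the 4 diets were estimated for every probe set by limma 3.58.1 (R 4.3.3), with no covariate. It stands in for the study's ANOVA over Perfect Match cells, which needs signals not used here. The oil effect was the mean of CF and TF minus that of CS and TS. The protein effect was the mean of TS and TF minus that of CS and CF. The interaction was the oil difference on tofu minus that on casein. An adjusted p is a Benjamini-Hochberg p over all probe sets, with a threshold of 0.05. Permutation tests used 100000 resamples. Rats are separate animals, and p-values measure the spread between them. The workflow was tested on simulated data.

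Named genes were the 7 members, up to 4 genes per other list for the oil effect and up to 2 for the protein effect with the lowest adjusted p among those that passed, malonyl-CoA and nuclear receptor genes needed beside a member, and 3 neighbours by correlation for each member called. Bbox1, Tmlhe, Slc22a4 and Acsl1 were added after their values were seen. Eci2, Alb and Ttr were also named outside this rule. The members and lists were chosen with earlier results of these data known. Listed genes without a probe set of 1 symbol were not used here. The alternatives were 2 other normalizations, bright probe sets only, rat number as a block, 2 other variance models, array weights, averaging the probe sets of a gene, 2 sets of arrays left out, and each rat left out in turn.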

Additional observations from a re-analysis of the deposited data

How the results depend on the processing

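The oil effect of Crat and Crot kept its direction and passed in all 10 other settings and in all 20 fits without 1 rat. The number of members called for the oil was 5 in 8 of these settings, 2 with the rat number as a replicate block and 2 without the 3 least correlated arrays, a fit of 17 rats. With the block, Cpt2, Slc25a20 and Slc22a5 differed by 0.25, 0.20 and 0.23 in z (limma adjusted p = 0.110, 0.0688 and 0.234). The labels do not say that the rat number pairs animals. Of 22 same-numbered pairs 1 had a correlation of deviations over 0.1, with a median of 0.037 against -0.0080 over 128 differently numbered pairs. Of 19 rats with a same-numbered rat in another group, 6 correlated best with their own number. The 4 arrays with a low 5′ β-actin value came from the lowest-numbered rat of each group (TF rat 3 and rats 1 of TS, CF and CS). Whether the numbers track a shared step of processing was not tested. The number of members called on casein was 3 with bright probe sets only, 2 with a variance trend, 2 with array weights, 2 with averaged probe sets and 0 with the block, and 1 to 3 without 1 rat. On tofu it was 1 with quantile normalization, 1 without the 4 arrays with a low 5′ β-actin value, 0 with the block and 0 without the 3 least correlated arrays, and 0 to 2 without 1 rat. For the bright probe sets the number of tests was smaller, and elsewhere the cause was not tested. For the protein effect and the interaction 0 members passed in any setting. Cpt2 minus Cpt1a was a pair chosen after the values were seen. Its oil difference ranged from 0.14 to 0.18 in z in 5 other settings (highest permutation p = 0.0172, a description only). Without 1 rat it ranged from 0.16 to 0.21.

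Small differences, none of which passed, changed sign. For the protein effect these were Cpt1b at 0.0085 with the block and Slc25a20 at -0.00406 without the 4 arrays. For the interaction, quantile normalization gave 0.00397 for Cpt1b and 0.0023 for Slc25a20. Scaling gave 0.019 for Cpt1a, 0.00410 for Cpt1b and 0.034 for Slc25a20. The block gave 0.00285 for Cpt1b, and array weights gave 0.022 for Cpt1b and 0.00015 for Slc25a20. Without the 4 arrays the values were 0.022 for Cpt1b and -0.018 for Cpt2, and without the 3 arrays 0.056 for Cpt1a and 0.013 for Cpt1b. Without 1 rat the interaction ranged from -0.060 to 0.033 for Cpt1a, from -0.043 to 0.016 for Cpt1b, from -0.00395 to 0.072 for Cpt2 and from -0.044 to 0.026 for Slc25a20, and the oil difference of Cpt1b on tofu from -0.0076 to 0.051. The files hold no measure of background, so what signal over background limits was not analysed here.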

Other observations

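Markers of other liver cells were read beside the shuttle genes. Of 8 Kupffer cell and macrophage markers 0 rose and 0 fell on fish oil by limma, and all 8 differences lay below 0, with a median of -0.073 in z against -0.0018 over all genes. Of 10 hepatic stellate cell markers 0 passed, all 10 differences lay below 0, and the median was -0.079. The mean z of the Kupffer markers per rat was 0.967 to 1.18 in TF and 1.03 to 1.08 in CF, against 1.06 to 1.26 in TS and 0.961 to 1.18 in CS. Their part in the shuttle results was not tested. Of 7 hepatocyte, 9 adipocyte, 6 endothelial and 5 bile duct markers 0 passed for the oil.

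On tofu 1 stellate marker rose, Rgs5, a regulator of G protein signalling known from pericytes, by 0.28 in z (SE 0.052, limma adjusted p = 0.0151). Its mean z was 0.10 ± 0.12 in TF and -0.096 ± 0.12 in CF, 0.20 ± 0.14 in TS and -0.15 ± 0.094 in CS (SD, n = 5 each). The stellate list as a whole did not follow it. Over the 10 stellate markers the median protein difference was 0.011 in z, against 0.011 over all genes, and 4 of the 10 lay below 0.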
